A study of Rattus norvegicus with 16 samples.

Results

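The miRNAs described here are the 5 mature rat miRNAs of the miR-92 and miR-25 seed family: miR-92a-3p, miR-92b-3p, miR-25-3p, miR-363-3p and miR-32-5p. They were chosen by name, as 5 of the 722 mature miRNAs in the count tables. The name list was drawn up after miR-92a-3p had been noticed for a lower level in high than in low responder dorsal raphe, so that difference is given here as a description, with no test. The tissue was brain of 60-day-old rats (Rattus norvegicus), and the labels name 4 groups of 4 small RNA libraries each: high responder amygdala, low responder amygdala, high responder dorsal raphe and low responder dorsal raphe. High responder (HR) and low responder (LR) rats are known as lines bred for strong and weak exploration of an unfamiliar place, and the labels name no treatment. The amygdala is a forebrain centre of fear and emotional learning, and the dorsal raphe is a midbrain nucleus that holds serotonin neurons. Nothing in the labels states that each sample is a different rat; the p-values therefore reflect sample-to-sample spread only, which may be technical.

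A miRNA is a short RNA that guides an Argonaute protein to messenger RNAs, mainly by pairing of its seed (bases 2 to 8), and target messages are repressed or degraded. miRNAs with one seed can therefore share many targets, while the rest of the sequence and the gene of origin differ. miR-92a is the last miRNA of the miR-17-92 cluster, which is known for driving cell proliferation, and miR-25 belongs to the miR-106b-25 cluster in an intron of the replication helicase gene Mcm7. miR-363 comes from the X-linked miR-106a-363 cluster, which carries a second copy of miR-92a. miR-92b has its own gene and is known from neural progenitors, and miR-32 lies in an intron of the membrane protein gene Tmem245. In cultured rat neurons miR-92a is known to repress the AMPA receptor subunit GluA1.

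All 5 members had a mature sequence in RefSeq (rat assembly GRCr8), printed here 5′ to 3′ to show the shared seed, which is in capitals, and the bases in which the members differ:
rno-miR-92a-3p: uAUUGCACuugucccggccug
rno-miR-92b-3p: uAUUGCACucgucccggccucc
rno-miR-25-3p: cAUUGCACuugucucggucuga
rno-miR-363-3p: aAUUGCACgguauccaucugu
rno-miR-32-5p: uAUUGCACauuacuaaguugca

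Of the 693 distinct mature sequences in the RefSeq table, exactly these 5 held the seed. Counted from the 5′ end over the length of the shorter sequence, miR-92a-3p and miR-92b-3p differed at 2 of 21 bases, and miR-92a-3p and miR-25-3p at 3 of 21. miR-92b-3p and miR-25-3p differed at 6 of 22 bases. miR-363-3p and miR-32-5p stood farther off, with 9 to 13 mismatches to each other and to the other members, none of them in the seed. Since nothing used here states how reads matching several miRNAs were counted, some reads of miR-92a-3p, miR-92b-3p and miR-25-3p may have been assigned to one another, and their separate levels are uncertain to that degree. GC content ran from 63.6% in miR-92b-3p over 57.1% in miR-92a-3p, 50.0% in miR-25-3p and 42.9% in miR-363-3p to 31.8% in miR-32-5p.

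In GRCr8 miR-92a-3p comes from 2 hairpins, Mir92a1 at chr15:98588555-98588632 on the plus strand and Mir92a2 at chrX:137342928-137343019 on the minus strand. Mir92a1 lies 35 bases from Mir19b1 and within 623 bases of Mir20a, Mir19a, Mir18a and Mir17. Mir92a2 lies 64 bases from Mir363 at chrX:137342777-137342863, beside Mir19b2, Mir20b and Mir106a on the same strand. Mir25 at chr12:22156641-22156724 on the minus strand lies within the span of Mcm7 and 119 bases from Mir93. Mir92b at chr2:176931653-176931735 and Mir32 at chr5:76391285-76391354, both on the minus strand, had no other miRNA hairpin within 10 kb, and Mir32 lies within the span of Tmem245. These positions are background from the annotation; the build behind the counts is not given in the sources used.

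The libraries held 1741167 to 8134915 counts each, so 3 counts, the limit that a count of 0 allows for counting error only, correspond to 0.369 to 1.72 CPM (counts scaled to library size). All 5 members passed the filter on low counts, which 639 of 722 miRNAs passed. Levels below are CPM after TMM scaling (trimmed mean of M values), with replicates in the order 1 to 4 where single libraries are listed. Neuronal marker miRNAs (miR-124, miR-128 and miR-9a) summed to between 141656 and 269187 CPM in every library, as neural tissue would give; no marker of either brain region was examined. Low responder dorsal raphe replicate 4 (TMM factor 0.596) and high responder amygdala replicate 1 stood apart from their groups, with root mean square deviations over all miRNAs of 1.03 and 0.968 on the log2 scale. The other 14 libraries lay at 0.285 to 0.880 with factors of 0.870 to 1.27. The slope of log2 levels (each miRNA centred on its mean over the 16 libraries) against GC content was 0.21 per 10 percentage points in high responder amygdala 1 and 0.14 in low responder dorsal raphe 4, against −0.12 to 0.11 in the other libraries. The tested values of the members are also given without both of these libraries.

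The family made up a small part of each library, and miR-92b-3p was its most abundant member. The 5 members together held 0.191% ± 0.0262 of the counts in high responder amygdala and 0.237% ± 0.0312 in low responder amygdala, and 0.239% ± 0.00962 in high responder dorsal raphe against 0.280% ± 0.0341 in low responder dorsal raphe (SD, n = 4 each). Averaged over the 16 libraries, miR-92b-3p gave 40.5% of the family's counts, miR-25-3p 26.3%, miR-92a-3p 24.98%, miR-32-5p 7.97% and miR-363-3p 0.272%. By mean level miR-92b-3p ranked 102nd of the 722 miRNAs, miR-25-3p 123rd, miR-92a-3p 128th, miR-32-5p 196th and miR-363-3p 446th. The 3 abundant members changed order between libraries. The ratio of miR-92b-3p to miR-92a-3p was 1.84 ± 0.279 in high responder and 1.65 ± 0.277 in low responder amygdala, and 1.81 ± 0.457 in high responder against 1.35 ± 0.326 in low responder dorsal raphe (SD, n = 4 each). Ratios between members compare read counts of sequences that can differ in ligation and amplification, and are no ratio of molecules.

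**Figure D1:**
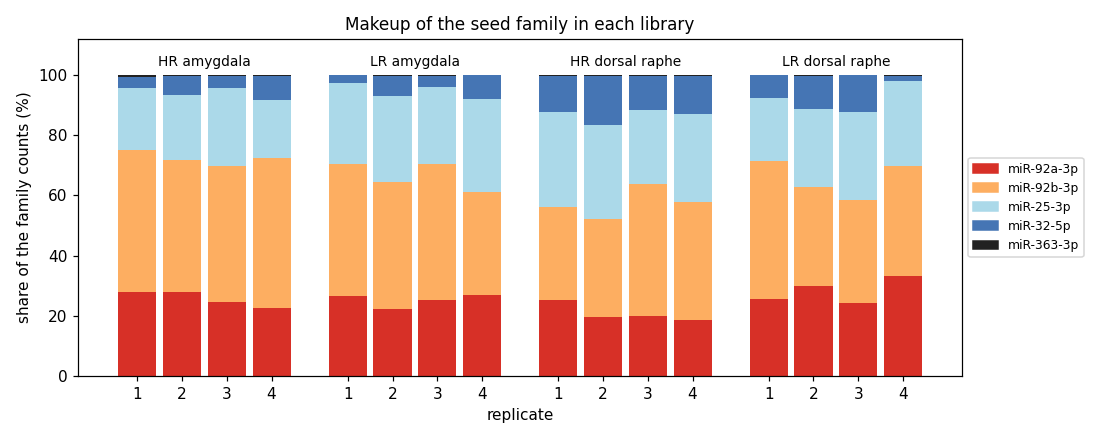
Share of each member in the family's summed counts (percent, vertical axis) in each of the 16 libraries, grouped by line and region. miR-92b-3p, miR-25-3p and miR-92a-3p fill most of every bar, and the segment of miR-32-5p averages 5.34% in amygdala libraries and 10.6% in dorsal raphe libraries.

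Between the regions, miR-32-5p was the member that differed. It averaged 119 ± 63.6 CPM in amygdala and 258 ± 85.7 CPM in dorsal raphe (SD, n = 8 each), 2.17-fold lower in amygdala (log2 fold change −1.12, SE 0.33, adjusted p = 0.0201, edgeR quasi-likelihood test averaged over both lines, Benjamini-Hochberg over the 639 miRNAs tested). No member was higher in amygdala and 1 of 5 was lower. In this comparison 24.3% of all miRNAs tested passed the adjusted threshold of 0.05, 9.39% higher and 14.9% lower in amygdala, so 1 of 5 is near the background. The median log2 fold change of the members was −0.23, beside −0.08 over all miRNAs tested.

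miR-32-5p had 62.8, 97.9, 99.3 and 195 CPM in high responder amygdala and 53.2, 129.5, 79.4 and 231 CPM in low responder amygdala. It had 223, 370.2, 264 and 287 CPM in high responder dorsal raphe and 229.5, 296, 316 and 81.7 CPM in low responder dorsal raphe. No member separated the regions, as 6.57% of all miRNAs tested did in either direction. For miR-32-5p replicate 4 was the highest amygdala library in each line, and low responder dorsal raphe replicate 4 lay within the amygdala range. In high responders alone the groups did not overlap (log2 fold change −1.33, given with no test), as in the same direction for 12.4% of all miRNAs tested. In low responders the log2 fold change was −0.91, with overlap.

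The call for miR-32-5p kept its direction in every alternative, with a log2 fold change of −0.97 and an adjusted p of 0.0123 (edgeR) without both libraries that stood apart. It is close to the threshold: leaving out 1 library gave adjusted p-values from 0.00779 to 0.0887 (edgeR), and the call was lost in 9 of 16 such fits: without high responder amygdala 1 or 2, low responder amygdala 2 or 3, high responder dorsal raphe 2, 3 or 4, or low responder dorsal raphe 2 or 3, with log2 fold changes between −1.03 and −0.90. miR-32-5p has the lowest GC content of the family. In the 3 libraries of highest GC slope its log2 deviation from the group mean was −0.73 (high responder amygdala 1), −0.99 (low responder amygdala 1) and −1.32 (low responder dorsal raphe 4). Among libraries of negative slope it lay at −0.42 in low responder amygdala 3 and −0.34 in high responder dorsal raphe 1, the library of lowest slope. The others of negative slope lay at −0.088 to 1.12, most of them above their group mean. Slopes ran from −0.12 to −0.04 in high responder dorsal raphe and from −0.014 to 0.21 in high responder amygdala. In low responders both regions had slopes of either sign. The part of GC content in the region difference was not tested. With each library's GC slope removed, an alternative chosen after seeing the data, the log2 fold change was −1.01 (SE 0.30, adjusted p = 0.0176, edgeR).

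The other 4 members did not pass the test between regions. miR-25-3p, of the miR-106b-25 cluster, averaged 546 ± 186 CPM in amygdala and 726 ± 191 CPM in dorsal raphe (SD, n = 8 per region; region log2 fold change −0.43, SE 0.20, adjusted p = 0.125, edgeR). It had 327, 341, 610.0 and 470.3 CPM in high responder amygdala and 569, 584, 541 and 922 CPM in low responder amygdala, against 595, 712, 579 and 666 CPM in high responder dorsal raphe and 623, 705, 756 and 1174 CPM in low responder dorsal raphe. The first 2 high responder amygdala libraries were the lowest of all 16 and the 2 regions overlapped. Scaled by library totals alone, miR-25-3p passed, at a log2 fold change of −0.42 and an adjusted p of 0.0465 (edgeR). Its log2 fold change was −0.08 without both libraries that stood apart (adjusted p = 0.719, edgeR), where the median of all miRNAs tested moved up by 0.28.

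miR-92a-3p averaged 545 ± 118 CPM in amygdala and 676 ± 329 CPM in dorsal raphe (SD, n = 8 per region; region log2 fold change −0.23, SE 0.20, adjusted p = 0.395, edgeR). miR-92b-3p averaged 937 ± 171 CPM in amygdala and 992 ± 318 CPM in dorsal raphe (SD, n = 8 per region; region log2 fold change −0.06, SE 0.20, adjusted p = 0.826, edgeR). miR-363-3p, the X-linked member, averaged 5.94 ± 2.82 CPM in amygdala and 6.40 ± 1.66 CPM in dorsal raphe (SD, n = 8 per region; region log2 fold change −0.11, SE 0.29, adjusted p = 0.786, edgeR). Without both libraries that stood apart the log2 fold changes of these 3 members were 0.12, 0.24 and 0.10, the opposite sign, while the median of all miRNAs tested moved up by 0.28. None of these values showed a direction beyond the spread between libraries.

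**Figure D2:**
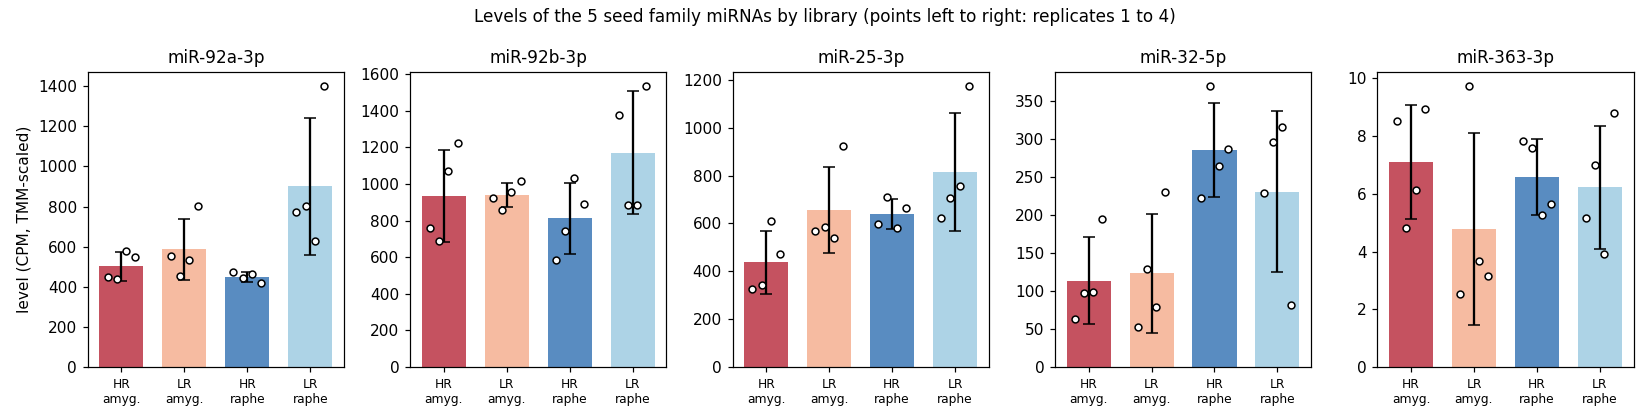
Level of each of the 5 members (TMM-scaled CPM, linear vertical axes from 0) in every library of the 4 groups; points are libraries, bars are group means and error bars are SDs (n = 4). For miR-32-5p the amygdala libraries lie between 53.2 and 231 CPM and the dorsal raphe libraries between 81.7 and 370.2 CPM; for miR-92a-3p the 4 high responder dorsal raphe libraries lie below the 4 low responder ones.

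**Figure D3:**
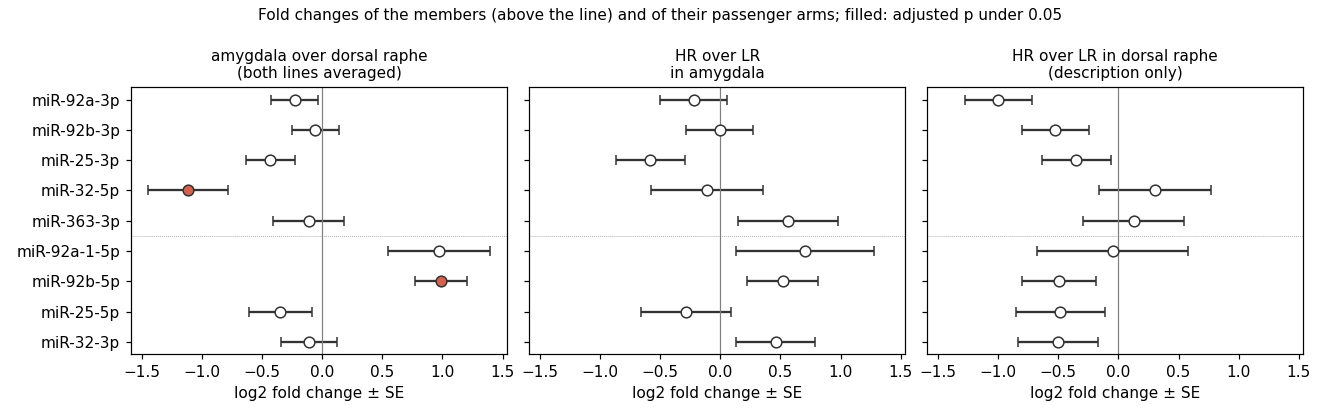
Log2 fold changes (horizontal axes, with error bars of 1 SE) of the members and, under the dotted line, of the opposite (passenger) arms, for the region difference, amygdala over dorsal raphe, as a mean of both lines, and the line difference (high over low responder) in amygdala and in dorsal raphe. Filled points mark an adjusted p under 0.05 (edgeR), miR-32-5p at −1.12 and miR-92b-5p at 0.99 between regions; among the members the dorsal raphe line value of miR-92a-3p, at −0.998, is the next farthest from 0, and the dorsal raphe line values are a description, with no test.

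Markers of several cell types also differed between the regions, and their part in the family's values was not tested. Of the choroid plexus markers (the miR-204 and miR-211 arms, miR-1298 and miR-449a-5p), 5 of 6 were called higher in amygdala. Their summed level ran from 33288 to 49392 CPM in high responder and 2096 to 47841 CPM in low responder amygdala, against 2482 to 3812 CPM in high responder and 2823 to 7028 CPM in low responder dorsal raphe, and 1 of the 6 was at 0 in each of 2 high responder dorsal raphe libraries. Low responder amygdala replicate 4 had the lowest of these amygdala sums, 2096 CPM, and also the highest miR-32-5p level among the amygdala libraries. High responder amygdala replicate 4, next in miR-32-5p level, had a choroid plexus sum of 40174 CPM. Without low responder amygdala replicate 4 the region log2 fold change of miR-32-5p was −1.28 (adjusted p = 0.00823, edgeR). All 3 oligodendrocyte markers (both miR-219 arms and miR-338-3p) were called lower in amygdala. Their sums were 6166 to 9346 CPM in high responder and 4255 to 11874 CPM in low responder amygdala. In dorsal raphe they were 8936 to 10213 CPM in high and 11919.8 to 38991 CPM in low responders. The highest of these amygdala sums was also that of low responder amygdala replicate 4. Of 5 neuronal markers, miR-128-3p was called higher in amygdala (log2 fold change 2.23) and the other 4 were not called, with −0.74 for miR-9a-3p, −0.47 for miR-124-3p, 0.08 for miR-124-5p and 0.17 for miR-9a-5p. Neither endothelial marker and none of the 3 erythrocyte markers tested was called. Without both libraries that stood apart, 1 of 3 oligodendrocyte markers (miR-338-3p, −0.88) was called lower, miR-9a-3p (−0.57) and both endothelial markers were also called lower, and miR-9a-5p (0.54) was also called higher. In that fit the median of all miRNAs tested moved up by 0.28. Over the 9 alternatives other than leaving out 1 library, 143 to 212 miRNAs were called between regions, against 155 in the main fit. The share called without both libraries is not given here. With all 16 libraries miR-126a-3p, an endothelial marker, had a log2 fold change of −0.63 (adjusted p = 0.0503, edgeR), and erythrocyte sums were at most 348 CPM in any library. In bulk tissue, fewer cells of a type and less RNA per cell cannot be told apart.

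Each hairpin also yields an opposite (passenger) arm, which is usually the less abundant strand and carries another seed. All 6 opposite arms were in the tables, and miR-92a-1-5p, miR-92b-5p, miR-25-5p and miR-32-3p passed the filter on low counts. miR-92a-2-5p, with 0 to 6 counts per library, and miR-363-5p, with 0 to 10, did not. The arm with the clearest difference was the opposite arm of miR-92b-3p, shown with that of miR-32-5p because in these hairpins one arm differed between the regions and the other did not pass the test:
rno-miR-92b-5p: agggacgggacgcggugcaguguu
rno-miR-32-3p: gcaauuuagugugugugauauu

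miR-92b-5p averaged 17.7 ± 5.50 CPM in amygdala and 8.94 ± 2.59 CPM in dorsal raphe (SD, n = 8 each), 1.99-fold higher in amygdala (log2 fold change 0.99, SE 0.21, adjusted p = 0.00216, edgeR). It had 15.4, 17.0, 23.6 and 27.1 CPM in high responder amygdala and 20.2, 14.1, 12.8 and 11.4 CPM in low responder amygdala. In dorsal raphe it had 4.57, 6.33, 8.07 and 10.5 CPM in high responders and 11.7, 9.72, 8.61 and 12.01 CPM in low responders. The regions overlapped by low responder libraries alone, whose log2 fold change was 0.48, while the high responder groups did not overlap, at 1.496, as in the same direction for 11.1% of all miRNAs tested. The difference between these 2 values was not tested. The call held in all 16 fits that left out 1 library, with log2 fold changes of 0.89 to 1.20. miR-92b-5p rested on 14 to 143 counts per library.

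Set against its own partner arm, miR-92b-5p made up 2.03%, 2.47%, 2.21% and 2.21% of the miR-92b-3p counts in high responder amygdala and 2.18%, 1.65%, 1.33% and 1.12% in low responder amygdala. In dorsal raphe the share was 0.784%, 0.852%, 0.781% and 1.18% in high responders and 0.850%, 1.10%, 0.973% and 0.782% in low responders. One amygdala library, low responder replicate 4, lay within the dorsal raphe range. This ratio does not depend on the scaling of the libraries. Its log2 value, with 0.5 added to each count, was 1.02 higher in amygdala (1.32 in high and 0.72 in low responders; exact two-sided permutation of region within line, p = 0.000408, the smallest the 4900 permutations can give, adjusted p = 0.00163 over the 4 arm pairs). Without both libraries that stood apart it was 1.00 higher (exact permutation p = 0.000816). The arm ratio was tested after its values were seen.

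Of the miR-32 arms, miR-32-5p was called between the regions and miR-32-3p was not. miR-32-3p averaged 6.89 ± 1.94 CPM in high responder and 4.87 ± 1.82 CPM in low responder amygdala, and 5.21 ± 1.33 CPM in high responder and 7.44 ± 0.517 CPM in low responder dorsal raphe (SD, n = 4 per group; region log2 fold change −0.11, SE 0.23, adjusted p = 0.741, edgeR). As a percentage of miR-32-5p it was 15.3, 6.79, 4.99 and 3.25 in high responder amygdala and 6.90, 3.55, 4.64 and 3.26 in low responder amygdala, against 2.35, 1.12, 2.68 and 1.52 in high responder and 3.20, 2.29, 2.42 and 9.80 in low responder dorsal raphe. The highest value of each region came from a library that stood apart. The log2 ratio was 1.05 higher in amygdala (exact two-sided permutation of region within line, p = 0.0322, adjusted p = 0.0566 over the 4 arm pairs), which misses the threshold. It was 1.08 higher without both of those libraries (exact permutation p = 0.00163), and leaving out 1 library gave exact permutation p-values from 0.000816 to 0.0661.

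The other arms were thinly counted. miR-92a-1-5p, from the Mir92a1 hairpin of the miR-17-92 cluster, had 240 counts over all libraries and miR-92a-2-5p, from the X-linked copy, 45, beside 43135 counts of miR-92a-3p. As a share of miR-92a-3p, miR-92a-1-5p was 2.503%, 2.54%, 0.343% and 0.470% in high responder amygdala and 0.784%, 0.565%, 1.10% and 0.378% in low responder amygdala. In high responder dorsal raphe it was 1.10%, 0.365%, 0.424% and 0.369%, and in low responder dorsal raphe 0.263%, 0.338%, 0.280% and 0.343%. The difference in log2 ratio was 1.02 (exact two-sided permutation p = 0.0424, adjusted p = 0.0566), which misses the threshold, and 2 high responder amygdala libraries gave the highest shares. It was 0.84 without both libraries that stood apart (exact two-sided permutation p = 0.0963). For miR-25-5p it was 0.17 (exact two-sided permutation p = 0.495).

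**Figure D4:**
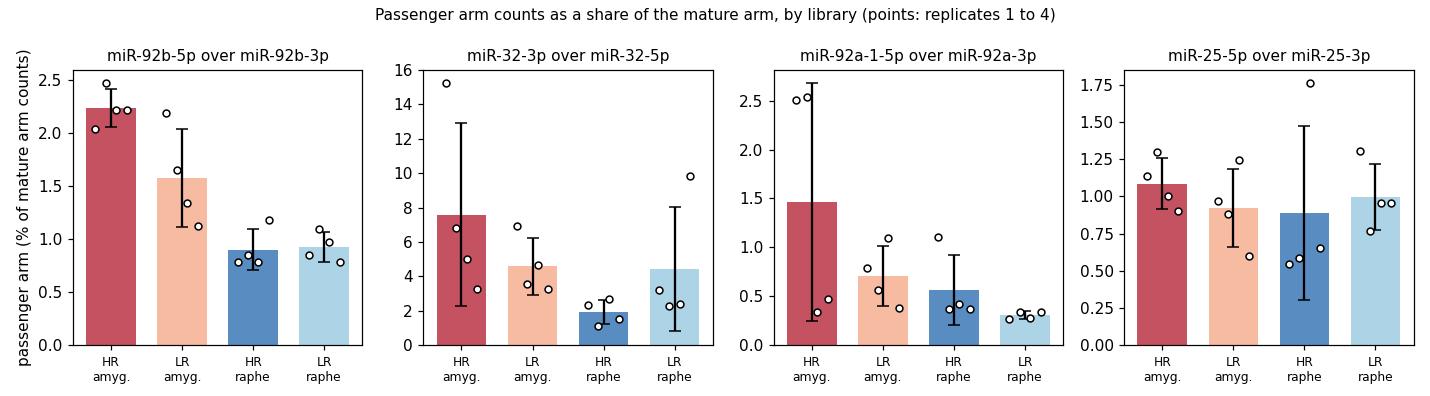
Opposite arm in percent of the counts of its family member (linear vertical axes from 0) for miR-92b, miR-32, miR-92a and miR-25 in the 4 groups; points are libraries, bars are group means and error bars are SDs (n = 4). For miR-92b the high responder amygdala libraries lie at 2.03% to 2.47%, above every dorsal raphe library, and low responder amygdala runs from 1.12% to 2.18%.

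Between the lines in amygdala, no member passed the test. None of the 639 miRNAs passed with edgeR (0% called), and 65 (10.2%) had an unadjusted p under 0.05, none of them a member; DESeq2 called 19 miRNAs and limma-voom 0. miR-25-3p had the lowest p of the members: it averaged 437 ± 132 CPM in high responder and 654 ± 179.5 CPM in low responder amygdala (SD, n = 4 per line; line log2 fold change −0.58, SE 0.29, adjusted p = 0.487, edgeR). Without low responder amygdala 4, its highest amygdala library, the log2 fold change was −0.33. The members' median log2 fold change was −0.11, beside 0.07 over all miRNAs tested. No member separated the lines in amygdala, as 8.76% of all miRNAs did. Without both libraries that stood apart, no member was called, with log2 fold changes of −0.49 for miR-25-3p, −0.19 for miR-92a-3p, 0.05 for miR-92b-3p, 0.46 for miR-363-3p and 0.07 for miR-32-5p.

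miR-92a-3p had 447, 437, 578 and 551 CPM in high responder amygdala and 556, 455, 533 and 804 CPM in low responder amygdala (log2 fold change −0.22, SE 0.28, adjusted p = 0.772, edgeR). miR-92b-3p had 759, 688, 1069.8 and 1222 CPM in high responder and 923, 858, 959 and 1014 CPM in low responder amygdala (log2 fold change −0.01, SE 0.28, adjusted p = 0.993, edgeR). In each case the groups overlapped, and the high responder libraries of miR-92b-3p spread to either side of the low responder ones. miR-363-3p had 8.52, 4.80, 6.12 and 8.94 CPM in high responder and 2.52, 9.74, 3.69 and 3.17 CPM in low responder amygdala (log2 fold change 0.56, SE 0.42, adjusted p = 0.709, edgeR). It rested on 11 to 53 counts per library, which limits the precision of its values. miR-32-5p had a log2 fold change of −0.11 (SE 0.46, adjusted p = 0.940, edgeR).

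Between the lines in dorsal raphe, miR-92a-3p was 2.00-fold lower in high responders, and this is the difference for which the family was noticed. It had 473, 446, 466 and 418 CPM in high responder and 771, 803, 628 and 1402 CPM in low responder dorsal raphe (451 ± 24.7 against 901 ± 342 CPM, SD, n = 4 each; log2 fold change −0.998, SE 0.28). The groups did not overlap, as in the same direction for 3.6% of all miRNAs tested. Low responder replicate 4, which stood apart and has the lowest TMM factor, gave the highest value. Without it the log2 fold change was −0.56. In CPM without TMM scaling the levels were 599, 449, 501 and 438 in high responders and 835, 856, 626 and 835 in low responders, still apart, with a log2 fold change of −0.67, while the median of all miRNAs moved up by 0.20 between these scalings.

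The order of the 4 group means of miR-92a-3p ran from 901 CPM in low responder dorsal raphe over 587 ± 151 CPM in low responder amygdala and 503 ± 71.8 CPM in high responder amygdala to 451 CPM in high responder dorsal raphe. Each neighbouring pair in this order overlapped. Given side by side with no test, the line difference of miR-92a-3p was −0.22 in amygdala and −0.998 in dorsal raphe, and its region difference (amygdala over dorsal raphe) was 0.16 in high responders and −0.62 in low responders, all on the log2 scale.

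The 2 members nearest in sequence to miR-92a-3p had smaller differences in dorsal raphe. miR-92b-3p had 583, 743, 1034 and 891 CPM in high responder and 1378, 887, 885 and 1536 CPM in low responder dorsal raphe (log2 fold change −0.53, SE 0.28), and miR-25-3p had a log2 fold change of −0.35 (SE 0.29). In both cases the groups overlapped, and without low responder replicate 4 the values were −0.25 and 0.01. miR-363-3p had 7.83, 7.59, 5.27 and 5.64 CPM in high responder and 5.15, 7.01, 3.91 and 8.81 CPM in low responder dorsal raphe (log2 fold change 0.13, SE 0.42). miR-32-5p had a log2 fold change of 0.31 (SE 0.46), with low responder replicate 4 the lowest of the 8 libraries. The members' median log2 fold change was −0.35, beside −0.06 over all miRNAs tested. Oligodendrocyte marker sums of 8936 to 10213 CPM in high responder and 11919.8 to 38991 CPM in low responder dorsal raphe also did not overlap, and low responder libraries 1 to 3 reached 14021.5 CPM. Of the 3 markers miR-219-2-3p did not overlap (log2 fold change −1.30), with 35331 CPM in low responder replicate 4, while miR-338-3p (−0.35) and miR-219-5p (−0.13) overlapped. Their part in the miR-92a-3p values was not tested.

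The other miRNAs of the members' genomic clusters were read from lists of both arms. Of the 10 miR-17-92 partners 8 were tested and none was called between regions or between lines in amygdala, with median log2 fold changes of 0.02 and −0.08. Between regions the lowest p-values were those of miR-19a-3p (−0.36), miR-17-1-3p (0.24) and miR-19b-1-5p (0.49). Between lines in amygdala they were those of miR-19b-1-5p (1.59, SE 0.65, adjusted p = 0.410, edgeR), miR-20a-5p (−0.78) and miR-17-5p (−0.82), the last 2 with one seed of their own. miR-19b-1-5p had 9.58, 6.65, 2.15 and 2.59 CPM in high responder and 1.15, 2.57, 1.52 and 1.32 CPM in low responder amygdala, few counts in each. Its log2 fold change was 1.15 without both libraries that stood apart (adjusted p = 0.430, edgeR). For the line difference in dorsal raphe, given with no test, the median of the 8 tested partners was 0.11. Of these partners 1 was below 0, beside 57.0% of all miRNAs tested, whose median was −0.06. The thinly counted opposite arm miR-92a-1-5p had −0.05 (SE 0.63) there, beside −0.998 for miR-92a-3p.

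All 4 partners of miR-25 in the miR-106b-25 cluster were tested and none was called. Their log2 fold changes between regions were −0.51 for miR-106b-5p (adjusted p = 0.279, edgeR), −0.30 for miR-93-5p, −0.21 for miR-93-3p and −0.09 for miR-106b-3p, beside −0.43 for miR-25-3p. Between lines in amygdala they were −0.52, −0.45, −0.07 and −0.40 for miR-106b-5p, miR-93-5p, miR-93-3p and miR-106b-3p, beside −0.58 for miR-25-3p. All of these values were below 0, and none passed the test. Without both libraries that stood apart miR-106b-3p was called higher in amygdala than in dorsal raphe (0.39, adjusted p = 0.0353, edgeR), the opposite sign. Between these fits the median region value of all miRNAs tested also moved up by 0.28, from −0.08 to 0.20. Without both libraries miR-93-3p between lines in amygdala was 0.05. Of the 4 partners of miR-363 in the miR-106a-363 cluster 3 were tested and none was called; between regions miR-20b-3p had 1.22 (adjusted p = 0.110, edgeR), miR-17-2-3p 0.76 and miR-20b-5p 0.63, beside −0.11 for miR-363-3p.

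Likeness to a member was measured as the root mean square difference of centred log2 CPM over the 16 libraries, among 403 miRNAs with a mean of at least 10 CPM. The nearest to miR-92a-3p outside the family were miR-106b-3p (0.26), let-7i-5p (0.27) and miR-322-3p (0.29), beside 0.32 for miR-92b-3p and 0.34 for miR-25-3p. The nearest to miR-92b-3p were miR-760-3p (0.20), miR-125a-3p (0.24) and miR-324-5p (0.24), and the nearest to miR-25-3p were miR-27b-3p (0.18), miR-140-3p (0.24) and miR-325-5p (0.27). For miR-32-5p they were miR-33-5p (0.29), miR-140-5p (0.35) and miR-9a-3p (0.42), while the other family members lay at 0.84 to 1.02 from it. For the thinly counted miR-363-3p they were miR-148b-5p (0.46), miR-539-5p (0.50) and miR-760-5p (0.50). All of these values come from the same 16 libraries, with their differences in depth, and whether likeness followed depth or GC content was not tested.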

How the data were processed

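Per the labels' protocols, total RNA was extracted with a miRNeasy kit and made into size-selected Illumina small RNA libraries. The authors deposited raw read counts per mature miRNA, 1 table per library; the tools in the submitters' processing notes are Bowtie2, cutadapt 1.3.1 and bedtools 2.14.2. The build, the settings and the handling of reads that match more than 1 miRNA are not given there.

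Counts were fitted as deposited with edgeR 4.0.16 in R 4.3.3: filterByExpr (minimum count 10, minimum total 15), TMM, and robust quasi-likelihood tests from a group-means model of the 4 groups over 16 libraries. The Benjamini-Hochberg adjustment covered 639 miRNAs, with a threshold of 0.05. Log2 CPM used a prior count of 2. The region difference averaged over lines and the line difference in amygdala were tested. The line difference in dorsal raphe, and contrasts sharing its libraries, were not, since miR-92a-3p was noticed there. The members, lists and comparisons were chosen with earlier results of these data known. Named are the members, the opposite arms of their hairpins, list members that passed or else the 3 of lowest p, and the 3 miRNAs most like each member. The fit was run on counts simulated with known fold changes, as a check of the code only. Error rates in the data used here were not tested. Sequences and positions are from RefSeq (GRCr8); 89.0% of tested miRNAs had a sequence there, which the GC slopes use. No library was a copy of another (lowest chi-square per degree of freedom 55.4 over 120 pairs).

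The labels number libraries 1 to 4 in each group. Same-numbered amygdala libraries of high and low responders deviated together (correlations across miRNAs 0.69, 0.29, 0.21 and 0.51, each over 0.1). The numbers were therefore taken to pair them in an alternative fit (the replicate block), though the meaning of the numbers is not labelled. The tests of the main fit were unpaired. The other pairs of groups each had 1 or more correlations at or below 0.1. Alternatives were DESeq2 size factors, library totals alone, no filter, DESeq2 1.42.0, limma-voom (limma 3.58.1), the replicate block, leaving out each library, leaving out both libraries that stood apart, and, chosen after seeing the data, a correction for each library's GC slope, alone and with the block. The arm ratio test was also chosen after seeing the data. The line differences were also fitted with only the groups compared.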

Additional observations from a re-analysis of the deposited data

Results flagged for a closer look

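In 2 of the 20 sets of 4 libraries that the 5 members give, 1 library lay far from the other 3 by Dixon's 95% criterion, which chance alone meets in about 1 set in 20. miR-25-3p had 922 CPM in low responder amygdala replicate 4, against 541 to 584 CPM in the other 3 libraries of that group, a gap of 0.885 of the range. miR-363-3p had 9.74 CPM in low responder amygdala replicate 2, against 2.52 to 3.69 CPM in the other 3, a gap of 0.838 of the range.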

How the results depend on the processing

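Of the members' values in the tested contrasts and the dorsal raphe line difference, 130 of 145 were unchanged under the alternatives other than leaving out 1 library. Of the rest, 12 changed sign, 1 newly passed the threshold, and 2 kept their sign but moved in size. The dorsal raphe line values were not tested, so only sign and size count for them. These alternatives keep or rescale all libraries, leave out both that stood apart, or, for the line differences, fit only the groups compared. When 1 library was left out, 204 of 240 were unchanged, 25 changed sign, 9 lost the call, and 2 moved in size only. With library totals alone 2 members passed between regions, and 2 miRNAs passed between lines in amygdala, where DESeq2 called 19 and leaving out both libraries 9. The line difference of miR-92a-3p in dorsal raphe was −0.67 with library totals and −0.62 without both libraries. Values near 0 changed sign. miR-92b-3p between regions was 0.019 with DESeq2 size factors, 0.010 with DESeq2 and 0.24 without both libraries; between lines in amygdala it was 0.0063, 0.0018 and 0.054 in the same order, and 0.0033 with no filter. Without both libraries miR-92a-3p and miR-363-3p between regions were 0.12 and 0.10, and miR-32-5p between lines in amygdala 0.072. With the GC slope removed, miR-32-3p between regions was 0.021 and miR-32-5p between lines in amygdala 0.0058, or 0.094 with the replicate block as well. The replicate block changed no member's call. With it miR-32-5p between regions was −1.24 (adjusted p = 0.0342, edgeR). For the region difference this block pairs same-numbered amygdala and dorsal raphe libraries of a line. Correlations of these pairs were mixed in high responders (0.67, −0.27, 0.35 and 0.53). In low responders they were −0.29, −0.00089, 0.16 and −0.28, which did not bear out a pairing. The cause of these changes was not tested. Leaving out the most abundant miRNA of each library, the family's share was 0.221% in high responder and 0.281% in low responder amygdala, and 0.277% in high responder and 0.316% in low responder dorsal raphe.

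Leaving out 1 library at a time, 0 to 1 members passed between regions and 0 to 2 miRNAs passed between lines in amygdala. Region values ranged from −1.28 to −0.90 for miR-32-5p, −0.12 to 0.13 for miR-92b-3p −0.29 to 0.063 for miR-363-3p and −0.43 to 0.0091 for miR-25-5p. Dorsal raphe line values ranged from −1.08 to −0.56 for miR-92a-3p and −0.42 to 0.0093 for miR-25-3p. Amygdala line values ranged from −0.16 to 0.11 for miR-92b-3p, −0.36 to 0.010 for miR-92a-3p and −0.51 to 0.44 for miR-32-5p. Depth limits miR-363-3p and the opposite arms, which had few counts in each library.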
